A study of Mus musculus with 24 samples.

Results

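The genes described here are 45 members of the Nodal, BMP and TGF-beta signalling pathway, of 21631 protein-coding mouse genes, followed through chromatin accessibility during cardiac differentiation. A member's accessible sites were all peak summits inside its mm10 gene body. A summit in no protein-coding gene counted for a member if that member's body was the nearest within 50 kb. By role the members are 12 ligands, 11 receptors and co-receptors, 12 antagonists and 10 nuclear factors. The membership list was set by gene name, and no measured value entered its rule. It was chosen with earlier results of these data known.

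The study profiled accessible chromatin by ATAC-seq, in which a transposase cuts and tags exposed DNA, in 24 samples of A2lox.cre, a mouse embryonic stem cell line. There were 2 replicates at each of 12 time points, and the deposited peaks form 1 list per time point. The list called 2i holds embryonic stem cells; 2i is a medium whose kinase inhibitors keep such cells in a naive state. D0 to D8 are the days labelled as intermediates of differentiation, and D10 and D15 the days labelled as cardiomyocytes. All groups share the line, and no treatment, sex or further genotype is named. With 1 list per time point there was no replicate spread, so no difference between 2 time points could be tested.

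Nodal and activin bind activin receptors and signal through SMAD2 and SMAD3, while BMPs bind BMP receptors and signal through SMAD1, SMAD5 and SMAD9; both branches share SMAD4. TGF-beta ligands use their own receptor pair and mostly the SMAD2 and SMAD3 branch. Nodal patterns the primitive streak, BMP signals are needed for mesoderm and heart, and feedback antagonists such as Lefty, Cer1, Noggin and the inhibitory SMADs limit the response.

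The lists held 31324 summits at D1 to 66993 at D7. The median fold enrichment was 6.39 at D3 and 4.75 (D8) to 5.54 (D5) in the other lists, so folds have no common scale across lists. The median −log10 p of peaks at a fold enrichment of 4.9 to 5.1, a measure of the statistical weight behind a call, was 7.69 at 2i, 7.71 at D4, 11.6 at D3 and 11.5 at D15. A region missing from a list was therefore not called there, which does not show that it was closed, and the part of list length and weight in the patterns below was not tested. Against the labels, all 8 pluripotency markers had an assigned summit from 2i to D4, with 5 at D10 and 4 at D15. Of 12 cardiomyocyte markers, 6 had a summit at 2i, 12 at D7, 5 at D10 and 7 at D15. The cardiomyocyte markers were thus most fully covered at D7, and fewer were covered at the days labelled cardiomyocyte. Smooth muscle markers went from 1 of 4 at 2i to 4 of 4 at D15, and fibroblast markers from 4 of 5 at 2i to 5 of 5 at D15. Whether other cell types contributed to the pathway genes' peaks was not tested.

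Most of the pathway genes had an assigned summit, inside the body or within 50 kb of it, in every list. A summit was assigned to 43 of the 45 at 2i, 41 at D0 and 38 at D1, beside 69.8%, 68.9% and 62% of all protein-coding genes in those lists. From D2 to D4 the counts were 43, 42 and 44, beside 72.2%, 72.3% and 74.3%. From D5 to D8 they were 44, 44, 43 and 44, beside 72%, 67.3%, 76.5% and 73.4%. For the D10 and D15 lists they were 43 and 41, beside 65.8% and 65.2%. The members were covered more often than genes in general in each list, and they were also longer, with a median body of 39.4 kb against 17.3 kb. Their median was 6 regions and 37 summits a gene, against 2 regions and 15 summits over all protein-coding genes.

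The few absences fell on particular genes. At D1, the list with most absences, the uncovered members were Bmp10, Tgfb3, Lefty1, Cer1, Smad9, Id1 and Id3. Bmp10 was also uncovered in every other list before D7, and Cer1 in every list but D4, D5 and D6. Tdgf1 was uncovered at D7, D10 and D15, Bmp5 at D3 and D15, and Nodal at D15.

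**Figure D1:**
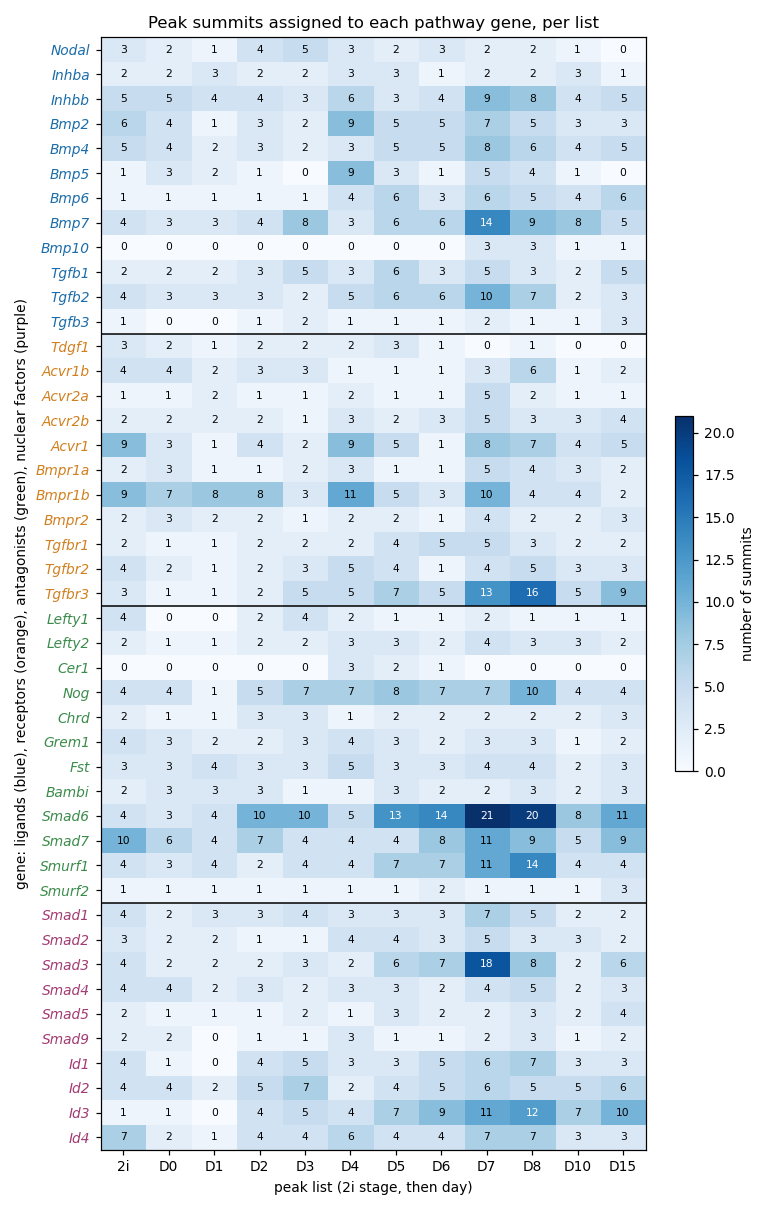
Number of peak summits assigned to each of the 45 pathway genes (rows, coloured by role) in each of the 12 peak lists (columns, 2i then D0 to D15). Bmp10 has no summit before D7, Cer1 has summits at D4 to D6 only, and Id3 goes from 1 summit at 2i to 12 at D8.

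In all, 1873 of 518537 summits belonged to the 45 genes, 977 of them inside gene bodies. Of these, 23 lay in more than 1 gene body, 18 at Chrd and 5 at Acvr1, and cannot be told apart from signal of the overlapping gene. Per 1000 summits of a list, members held 3.26 at 2i (Wilson 95% interval 2.78 to 3.82), 2.65 at D0 (2.19 to 3.20) and 2.62 at D1 (2.11 to 3.25). From D2 to D5 the share was 3.20, 3.34, 2.94 and 3.90. The share was highest at D6, at 4.67 (3.98 to 5.46), followed by 4.40 at D8 (3.87 to 5.00), 4.30 at D15 (3.68 to 5.03), 4.05 at D7 and 3.83 at D10. The intervals of D0 and D1 did not reach those of D5, D6, D7, D8 and D15. Intervals cover counting error only, with summits of the same gene treated as independent, and not the spread between cultures.

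Nuclear factors and antagonists varied most. Nuclear factors held 0.415 summits per 1000 at D1 (0.243 to 0.710) and 1.25 at D6 (0.922 to 1.70). Antagonists held 0.694 at D0 (0.480 to 1.00) and 1.56 at D6 (1.18 to 2.04). In both roles the interval of the lower list lay below that of D6. These were the lowest and highest of the 12 lists, picked from the same values, so the gap is not a test. At D6, Smad6 alone held 14 of the 51 antagonist summits, and Id3 held 9 of the 41 nuclear factor summits. Ligands held between 0.702 at D1 (0.464 to 1.06) and 1.16 at D6 (0.844 to 1.59), and receptors between 0.628 at D3 (0.426 to 0.928) and 0.988 at D8 (0.756 to 1.29), with overlapping intervals in each case.

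**Figure D2:**
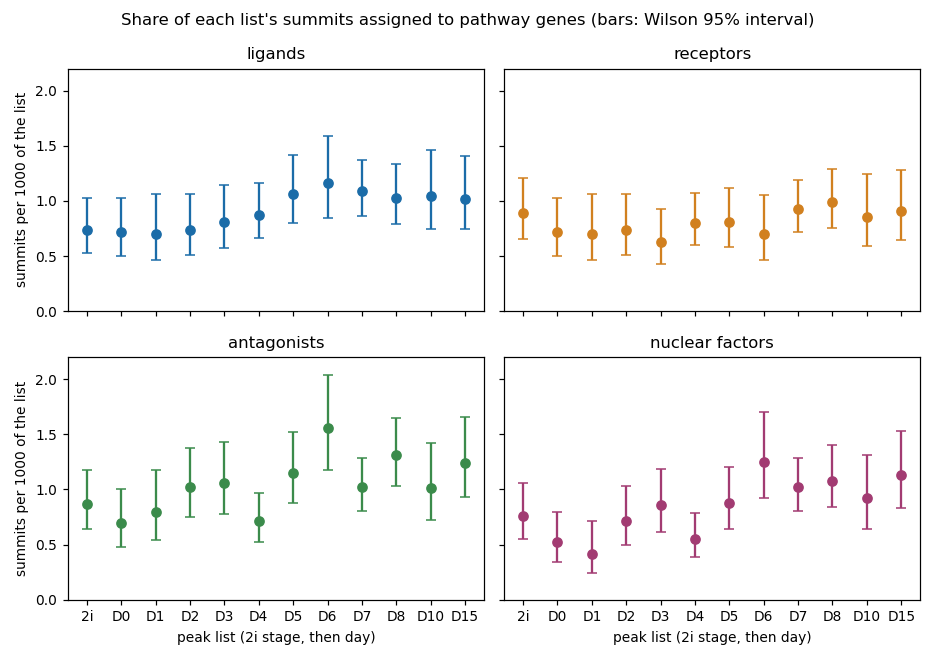
Summits assigned to each role per 1000 summits of the list (vertical axis) in the 12 peak lists (horizontal axis), with Wilson 95% intervals as bars. Nuclear factors and antagonists stand highest at D6, at 1.25 and 1.56 per 1000, while the receptors stay between 0.628 and 0.988.

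To follow single sites, the peaks of all lists were merged into regions, of which 370 belonged to the members and 95350 to any protein-coding gene. Of the member regions, 35 were called in all 12 lists (9.46%, Wilson 95% interval 6.88 to 12.9), against 11.4% of all gene regions. Early-lost regions, called at 2i and D0 and at neither D10 nor D15, numbered 25 (6.76%, 4.62 to 9.78), against 8.77%. Late-gained regions, called at D10 and D15 and at neither 2i nor D0, numbered 24 (6.49%, 4.40 to 9.47), against 4.11%. Transient regions, found between D1 and D8 in a run of 2 or more lists but not in the 2i, D0, D10 or D15 lists, numbered 62 (16.8%, 13.3 to 20.9), against 15.7%. A single list held 127 regions (34.3%), against 39.8%, and 97 (26.2%) had some other pattern, against 20.2%. The members' shares of always open, early-lost and transient regions had intervals that include the share over all genes. The late-gained and other patterns had intervals above it, and single-list regions one below it. Id3 alone held 5 of the 24 late-gained regions, and the intervals treat regions of the same gene as independent. The late-gained share with −log10 q of at least 5 was 5.20% (3.06 to 8.69), an interval that includes the 4.19% of all gene regions.

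Counted by gene, 20 of 45 members had an early-lost region, against 24.3% of all protein-coding genes. A late-gained region was found at 17 members, against 13.9% of genes, and a transient region at 30, against 34.7%. The members have more regions each than genes in general, so these shares are not comparable at equal numbers of regions. With −log10 q of at least 5, 11 of the 20, 7 of the 17 and 26 of the 30 still had a region of that class, and with equal list lengths 13, 15 and 23.

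By role, ligands had 11 early-lost, 7 late-gained and 23 transient regions among 106. Receptors had 3, 5 and 13 among 109, with 50 called in a single list. Antagonists had 5, 5 and 14 among 81, and nuclear factors 6, 7 and 12 among 74. Early-lost regions made up 10.4% at ligands and 2.75% at receptors, and late-gained regions 9.46% at nuclear factors, where Id3 held 5 of the 7. These differences between roles were not tested. With −log10 q of at least 5, nuclear factors had the lowest early-lost share (1 of 56, 1.79%, against 4 of 69 at receptors) and ligands the highest late-gained share (5 of 65, 7.69%, against 4 of 56 at nuclear factors).

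**Figure D3:**
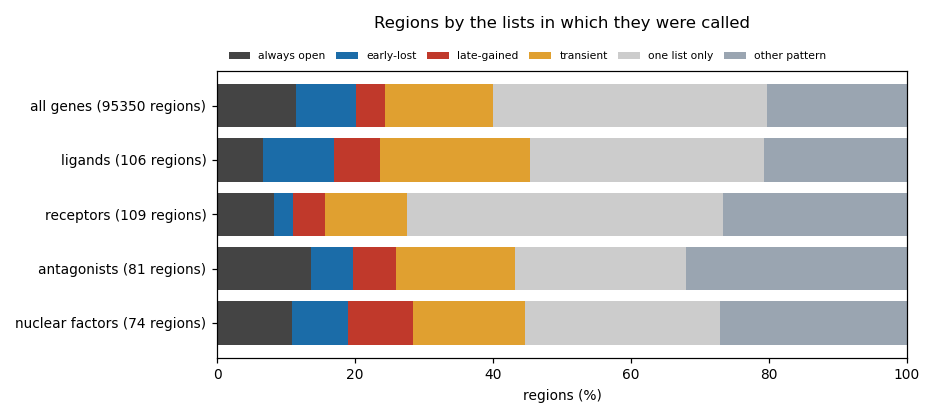
Share of regions (horizontal axis, %) in each class of calling pattern, for all gene regions and for the members by role. Receptors have the largest share of regions called in a single list (45.9%) and ligands the largest share of transient regions (21.7%).

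The classes also differed in position. Of the 35 always open regions, 26 had their best summit within 1 kb of an annotated start, or of either annotated end for the 13 members without a start in the promoter table. This is 74.3%, against 83.3% over the always open regions of all protein-coding genes. Of the early-lost regions 0 of 25 did (6.27% over all genes), of the late-gained 1 of 24 (13.2%) and of the transient 3 of 62 (6.18%). The median distance from a start was 0.283 kb for always open regions, 16.5 kb for early-lost, 13.6 kb for late-gained and 22.4 kb for transient ones. Sites in the changing classes lay mostly away from starts, in the members as over all genes. Of the 25 early-lost regions, 13, 10, 12, 6, 4, 3, 3 and 5 were called in the lists from D1 to D8 in turn. The class requires a call at D0 and leaves D1 free, and D1 is the shortest list. The fall to 13 at D1 therefore does not date the loss. Of the 24 late-gained regions, 3 were called by D2, 8 at D3, 14 at D5 and 21 at D7. Transient regions were called mainly at D7 (49 of 62) and D8 (45 of 62), which are among the 3 longest lists, and 15 were called at D7 and D8 alone.

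At the starts themselves, 28 of 45 members had a summit within 1 kb in all 12 lists, against 47.1% of all protein-coding genes. Another 16 had one in 1 to 11 lists, against 24.1%, and 1, Lefty2, in no list, against 28.8%. Receptors were the most constant role, with 8 of 11 starts called throughout, and ligands the least, with 6 of 12. The 17 genes with a start that was not always called were Nodal, Bmp4, Bmp5, Bmp10, Tgfb1, Tgfb3, Tdgf1, Bmpr1b, Tgfbr2, Lefty1, Lefty2, Cer1, Chrd, Smad9, Id1, Id2 and Id3. For Bmpr1b this holds for the starts of the promoter table, which lie inside its annotated body. Most of the components that transmit the signal, among them the SMADs other than Smad9, had starts called at each stage, while several ligands, antagonists and ID genes did not.

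Among the ligands, Nodal, which induces mesendoderm, passed through a series of different sites. Its gene is at chr10:61417972-61425338. Its start region, with the best summit 0.468 kb into the gene, was called in 7 lists (2i, D2, D3, D4, D6, D7 and D8) with fold enrichments of 3.12 to 5.69. A region 1.91 kb upstream was called from 2i to D3 and in no later list, with fold enrichments of 4.74, 3.79, 7.09, 3.08 and 6.37 in those 5 lists in turn. A region 11.8 kb upstream was called at D3 (11.6), D4 (4.35) and D5 (6.80). A region 4.62 kb upstream was called at D6 (4.21), D7 (9.01), D8 (8.58) and D10 (5.05). The upstream sites followed each other in time, with only D3 shared by the 1.91 kb and 11.8 kb regions. Inside the gene, 1.27 kb from the start, a region was called at D2, D4, D5 and D6, and another at 5.59 kb at D2 and D3. Through the 12 lists in the order 2i, D0 to D8, D10 and D15, Nodal had 3, 2, 1, 4, 5, 3, 2, 3, 2, 2, 1 and 0 summits.

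The sequence before the Nodal start is shown with that of Bmp4 and Bmp10 because all 3 ligands had starts that were called at some stages and not at others. Each is the 250 bases before the annotated start, from RefSeq on GRCm38.p6, the assembly named mm10, on the gene's own strand, with CpG dinucleotides in capitals. The windows are chr10:61417722-61417971 on the plus strand for Nodal, chr14:46390670-46390919 on the minus strand for Bmp4 and chr6:87428744-87428993 on the plus strand for Bmp10.
Nodal: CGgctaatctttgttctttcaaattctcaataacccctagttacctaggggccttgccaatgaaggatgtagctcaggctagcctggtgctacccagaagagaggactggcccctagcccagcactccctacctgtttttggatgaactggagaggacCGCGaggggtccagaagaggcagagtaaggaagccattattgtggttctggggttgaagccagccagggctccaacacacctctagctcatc
Bmp4: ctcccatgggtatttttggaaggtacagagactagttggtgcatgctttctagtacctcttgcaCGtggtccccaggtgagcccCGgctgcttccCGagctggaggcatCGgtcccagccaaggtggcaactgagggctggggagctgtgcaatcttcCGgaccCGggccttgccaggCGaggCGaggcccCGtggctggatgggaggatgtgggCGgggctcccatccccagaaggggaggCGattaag
Bmp10: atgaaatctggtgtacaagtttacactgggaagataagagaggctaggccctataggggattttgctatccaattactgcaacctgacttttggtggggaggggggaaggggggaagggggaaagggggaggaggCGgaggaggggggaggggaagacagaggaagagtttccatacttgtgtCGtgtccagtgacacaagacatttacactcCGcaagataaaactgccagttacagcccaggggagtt
The stretch holds 3 CpG at Nodal, 11 at Bmp4 and 3 at Bmp10.

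Bmp4, a BMP ligand required for mesoderm, had different distal sites called in early and in late lists. Its gene is at chr14:46383525-46390669 on the minus strand. Of its 12 regions, 3 were early-lost, 1 late-gained and 4 transient. The early-lost ones, 51.6 kb downstream of the start and 20.2 and 22.1 kb upstream, were called at 2i and D0 alone, with fold enrichments of 4.24 and 4.41, 3.72 and 6.56, and 5.32 and 5.25. The late-gained region 46.1 kb upstream, chr14:46436337-46437244, was called in each list from D4 on, at 5.30, 7.66, 5.09, 11.2, 9.36, 5.41 and 3.20. No list held both an early-lost region and the late-gained one. With −log10 q of at least 5, and also with equal list lengths, Bmp4 had 1 early-lost and 0 late-gained regions. The start region was called from D4 to D8 and at D15, at 2.15 to 4.07, whereas a region 3.06 kb inside the gene was called in all 12 lists, at 3.52 to 10.2. Total summits went from 5 at 2i to 2 at D1 and 8 at D7, with 5 at D15.

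Bmp10, a cardiac BMP ligand, had no summit in the 8 lists from 2i to D6. It then had 3, 3, 1 and 1 in the last 4 lists. The region that persisted, chr6:87422247-87423214, lies 6.41 kb upstream of the gene and was called at fold enrichments of 6.54, 5.26, 6.11 and 3.78 in those lists. A site at the start was called at D8 alone (3.43), and one 14.5 kb past the start at D7 (3.12) and D8 (3.43). Bmp10 was the only member with all its calls from D7 on. At −log10 q of at least 5 it had 1 region, which no longer met the late-gained definition.

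**Figure D4:**
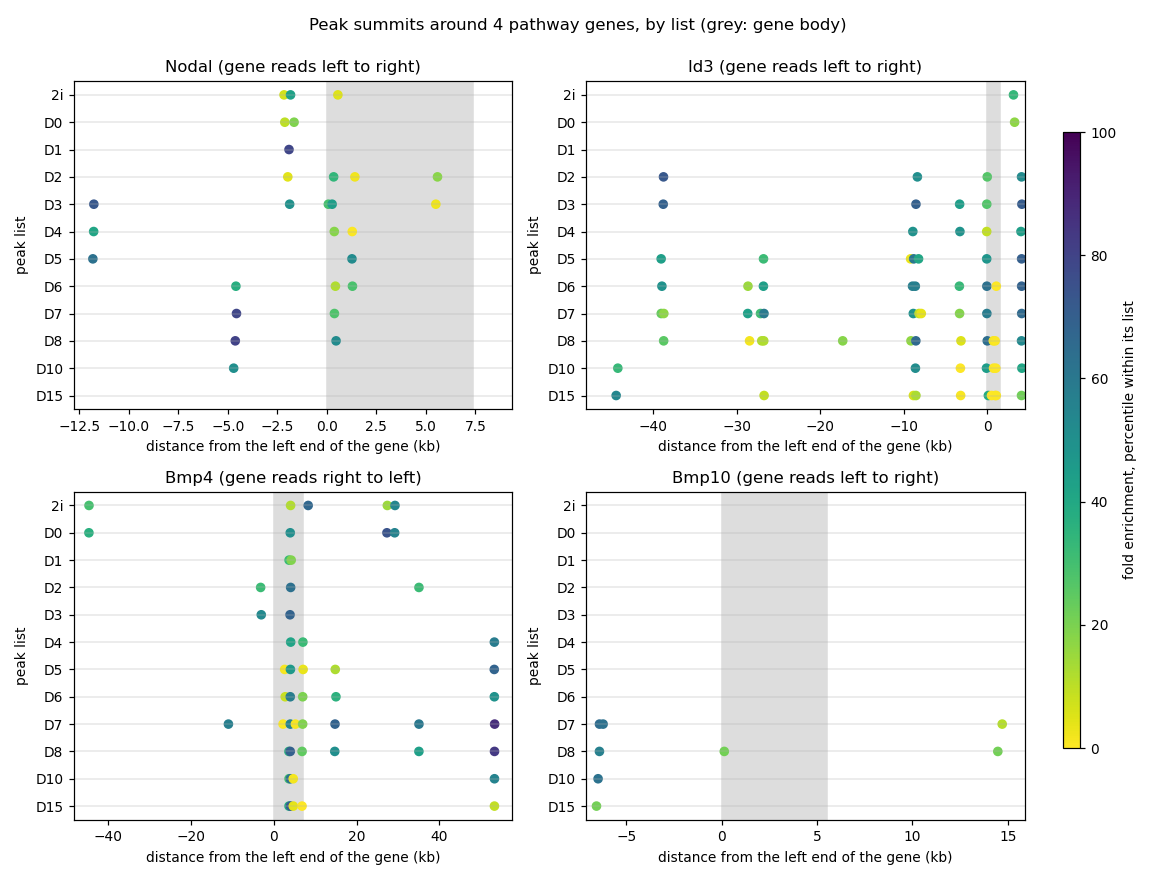
Peak summits around Nodal, Id3, Bmp4 and Bmp10 (horizontal axis, distance in kb from the left end of the gene; vertical axis, the 12 peak lists; grey, gene body), each point a summit coloured by the percentile of its fold enrichment within its list. Nodal shows a succession of upstream sites, Id3 fills in from D2 on, Bmp4 has distal summits at 2i and D0 and others from D4 on, and Bmp10 is empty before D7.

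The other BMP ligands kept an open start and varied further out, except Bmp5. Bmp2, a ligand for endocardial and mesodermal signalling, had a start region called in all 12 lists, an early-lost region 23.5 kb to the right (2i, D0, D4 and D5) and a transient one 8.04 kb to the right (D4, D5, D7 and D8). With −log10 q of at least 5, and also with equal list lengths, Bmp2 had 0 early-lost regions. Bmp5 had its start called at D4, D7 and D8 only, 2 further transient regions, 6.16 kb upstream and 5.57 kb inside, and an early-lost region 24.5 kb past its right end. Bmp6 had 1 summit in each list from 2i to D3, all at its start, and then 4, 6, 3, 6, 5, 4 and 6 from D4 to D15. Its late-gained regions lay 64.8 and 105 kb inside the gene. At D15 the first of these had a fold enrichment of 9.92, higher than 92.3% of the peaks in that list. Bmp7 had 17 regions, with a late-gained one left of the gene called at D3 and from D5 on, and an early-lost one within the gene called from 2i to D3. Its highest count, 14 summits, was at D7, the longest list.

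Inhbb, the activin beta B subunit, had 3 early-lost, 1 late-gained and 3 transient regions among 10. An early-lost region 23.3 kb past its start reached 7.06 at 2i, 5.73 at D0 and 7.37 at D1, and its late-gained region 17.3 kb past the start was called from D7 on at 3.33 to 5.48. Inhba, the activin beta A subunit, had 5 regions, none of them early-lost, late-gained or transient, and 1 to 3 summits in each list. Its start was called throughout, and a site 35.4 kb to its left was called at D0 (5.62) and D1 (9.72) alone. Tgfb2, the TGF-beta ligand of heart cushion formation, had a start region called throughout and a late-gained one at D8, D10 and D15. Tgfb1 and Tgfb3 had starts called in 11 and 10 lists, and neither had an early-lost or a late-gained region.

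Among the receptors, the type I and type II kinases had starts called in all 12 lists, except Bmpr1b and Tgfbr2 in 11, and the co-receptors were not alike. Acvr2a, an activin type II receptor, had a start region called in all 12 lists, at 8.03 at D0 to 17.2 at D3, and 1 or 2 summits in each list but D7, where it had 5. In rank within its list the Acvr2a start region stood above 88% of peaks at D0, 90% at D3 and 96.7% at D5. Tdgf1 (Cripto), the Nodal co-receptor, had a single region, chr9:110946206-110948272, whose best summit lay 1.35 kb upstream of the start. It was called from 2i to D6 and at D8, with fold enrichments of 4.16, 5.26, 4.48, 5.59 and 9.31 from 2i to D3, then 3.96, 3.78, 3.21 and 3.10. In rank within its list it stood above 26, 55.6, 34.2, 54.7, 64.8, 30.5, 21.1, 13.7 and 11.9% of peaks in the same lists. The Tdgf1 and Acvr2a stretches are shown as the receptors with the fewest and with constant calls at the start.
Tdgf1: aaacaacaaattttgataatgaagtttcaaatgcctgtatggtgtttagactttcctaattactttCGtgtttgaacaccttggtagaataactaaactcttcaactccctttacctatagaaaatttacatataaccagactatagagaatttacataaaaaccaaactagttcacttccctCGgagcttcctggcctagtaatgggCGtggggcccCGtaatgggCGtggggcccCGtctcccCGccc
Acvr2a: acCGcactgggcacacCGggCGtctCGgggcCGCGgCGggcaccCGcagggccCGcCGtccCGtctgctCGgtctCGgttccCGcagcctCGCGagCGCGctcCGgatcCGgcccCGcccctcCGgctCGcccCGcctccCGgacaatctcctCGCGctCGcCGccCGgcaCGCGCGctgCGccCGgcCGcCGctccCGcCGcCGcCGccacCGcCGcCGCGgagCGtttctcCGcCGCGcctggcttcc
They are the 250 bases before each start, chr9:110946159-110946408 on the minus strand and chr2:48813859-48814108 on the plus strand (RefSeq, GRCm38.p6), with CpG in capitals. Tdgf1 has 7 CpG and Acvr2a 49.

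Tgfbr3 (betaglycan), a co-receptor for TGF-beta ligands and inhibin, had the largest number of regions of any member, 27, of which 8 were transient, 2 late-gained and 12 called in 1 list. At −log10 q of at least 5 it had 4 transient and 0 late-gained regions. In list order from 2i to D15 its summits numbered 3, 1, 1, 2, 5, 5, 7, 5, 13, 16, 5 and 9. The D7 and D8 lists stood highest by number, and they are long lists, of 66993 and 53633 summits against 36248 at D15. Per 1000 summits of the list, the Tgfbr3 share was highest at D8, at 0.298. Its late-gained regions lay 27.3 kb left of the gene, called from D7 on at 4.16 to 5.47, and 18.3 kb left of it, called at D10 (3.01) and D15 (4.35) alone. Its start was called in all 12 lists, at 5.98 at D1 to 14.9 at D7.

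Bmpr1b, a BMP type I receptor, had 9, 7, 8, 8, 3, 11, 5, 3, 10, 4, 4 and 2 summits in list order from 2i to D15. D4 and D7, the longest lists, stood highest and D15 lowest. Its starts in the promoter table lie inside the annotated body. A region near the right end of the body, 332 kb from its left end, was called in every list, at 4.62 at D15 to 12.3 at D5. The gene is on the minus strand, so its body begins at that end. Its early-lost region, chr3:141848990-141850018 inside the gene, was called from 2i to D3 at 9.68 to 14.4. Acvr2b, Acvr1 and Tgfbr2 each had 1 late-gained region, all inside the gene, 23.3, 34.4 and 23.9 kb from the start. With −log10 q of at least 5, Acvr2b and Tgfbr2 had 0 late-gained regions, as Tgfbr2 also did with equal list lengths. Acvr1b, the activin type I receptor, had an early-lost region 9.51 kb upstream and a start called throughout. Tgfbr1 had 2 transient regions, and Bmpr1a and Bmpr2 1 each, called at D7 and D8.

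Of the secreted antagonists, Cer1 was called in the fewest lists, and the others in 10 to 12. Cer1, which binds Nodal and BMPs outside the cell, had summits at D4 (3), D5 (2) and D6 (1) alone. One of its 2 regions, chr4:82884975-82885366, spans the start and was called at D4 (4.63) and D5 (3.72). The other, 0.613 kb upstream, was called at D4 (5.26), D5 (4.39) and D6 (4.73). Lefty1, a Nodal antagonist, had 4, 0, 0, 2, 4 and 2 summits from 2i to D4 and 1 or 2 in each later list. A region 10.1 kb to its left was called at 2i, D2, D3 and D4, at 12.1 on D3, and a late-gained region inside the gene was called in each list from D3 on at 4.08 to 5.86. Early and late calls at Lefty1 were at different sites. Its neighbour Lefty2 had a region 4.26 kb to the left called in all 12 lists, at 8.07 at 2i, 8.27 at D1 and 14.1 at D3, then at 2.65 at D10 and 2.82 at D15. In rank within its list that region went from above 86.8% of peaks at 2i to above 3.65% at D15. A late-gained region 8.96 kb left of Lefty2 was called at D4, D5, D7, D8, D10 and D15, highest at D7 (7.61).

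The Cer1 stretch before the start, chr4:82885152-82885401 on the minus strand (RefSeq, GRCm38.p6, CpG in capitals), is shown because the D4 and D5 region at the start overlaps it and the D4 to D6 region lies just upstream of it. It has 5 CpG.
Cer1: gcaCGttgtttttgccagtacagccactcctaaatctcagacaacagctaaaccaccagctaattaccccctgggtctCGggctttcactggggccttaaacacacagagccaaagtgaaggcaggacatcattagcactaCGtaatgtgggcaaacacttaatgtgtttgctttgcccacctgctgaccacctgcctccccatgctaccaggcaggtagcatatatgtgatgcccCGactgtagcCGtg

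Nog (Noggin), Chrd (Chordin), Grem1 and Fst (Follistatin) bind BMPs or activin outside the cell. Nog had 2 transient regions, both called from D4 to D8, 42.6 kb left of the gene (8.59 at D4, 8.93 at D7, 3.95 at D8) and 2.17 kb left of it (2.31 to 4.58). Its start was called in all 12 lists, at 3.39 to 4.84. Chrd had an early-lost region, called from 2i to D3, 49.6 kb past its right end, near the edge of the distance allowed. Grem1 had an early-lost region 8.82 kb inside the gene, called at 2i, D0, D1 and D3 at 7.10 to 9.28. Fst had 2 to 5 summits in each list and no early-lost, late-gained or transient region. Bambi, a decoy receptor, had an early-lost region 16.5 kb to its left (2i to D2) and a transient one 27.4 kb to its right (D5 and D6). With −log10 q of at least 5, and also with equal list lengths, Bambi had 0 early-lost regions. Each of these antagonists but Chrd kept a start called in all lists.

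Among the intracellular antagonists, Smad6 and Smurf1 had most summits by number at D7 and D8. These are long lists, of 66993 and 53633 summits, against 32791 at D6. Smad6, the inhibitory SMAD of the BMP branch, had 23 regions and the most summits of any member. In list order from 2i to D15 these were 4, 3, 4, 10, 10, 5, 13, 14, 21, 20, 8 and 11. Lists from D5 to D8 stood above all earlier ones. Per 1000 summits of the list, the Smad6 share was highest at D6, at 0.427. A late-gained region 23.3 kb upstream, chr9:64044999-64045729, was called from D4 on at 5.45, 7.87, 10.4, 12.1, 7.38, 3.40 and 4.74. About 28 kb upstream an always open region had 7.13, 8.00, 7.22, 9.15 and 12.9 from 2i to D3, then 5.00, 4.40, 4.23, 4.33, 4.57, 3.63 and 5.01. Smad7, the general inhibitory SMAD, had 2 early-lost regions, 2 late-gained and 2 always open. With −log10 q of at least 5, and also with equal list lengths, Smad7 had 0 early-lost regions. Its late-gained regions had their highest fold at D7, at 10.2 and 9.21, and its early-lost ones at 2i (5.08) and D3 (9.32). In rank within its list, the second early-lost region stood above 83.2% of peaks at 2i and 64.8% at D3. Smurf1, a ubiquitin ligase acting on SMADs and receptors, had 4 transient regions, all including D7 and D8, and 14 summits at D8, while Smurf2 had 1 summit in most lists.

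Searched on both strands of the RefSeq promoter windows (250 bases before to 50 after a start; 37 windows of 32 members, 21045 in all), the SMAD palindrome GTCTAGAC occurred in 1 member window (2.7%), against 0.228% of all windows. That window was Smad6, with the motif starting 4 bases before the start. The GC-rich SMAD element GGCGCC was in 12 member windows (32.4%), against 15.5% of all, and the FOXH1 element TGTGGATT in 0, against 0.784%. The 11 genes with GGCGCC were Acvr1b, Bmpr1a, Bmpr2, Chrd, Grem1, Id2, Id4, Smad5, Smad9, Smurf2 and Tgfbr1. A match describes letters only, and GGCGCC is frequent in windows rich in G and C. The Smad6 stretch (chr9:64022056-64022159) and the Id2 stretch (chr12:25096093-25096342) are shown on their own minus strands with the matched motif in capitals.
Smad6: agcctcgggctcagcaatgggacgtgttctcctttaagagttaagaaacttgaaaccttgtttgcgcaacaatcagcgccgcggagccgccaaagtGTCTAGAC
Id2: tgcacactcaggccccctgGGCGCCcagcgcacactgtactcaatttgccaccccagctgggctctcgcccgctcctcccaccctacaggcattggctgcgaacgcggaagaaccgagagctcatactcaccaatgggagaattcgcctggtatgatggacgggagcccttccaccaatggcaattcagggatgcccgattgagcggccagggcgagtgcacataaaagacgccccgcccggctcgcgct

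Among the nuclear factors, 5 of 6 SMADs and 1 of 4 ID genes had a start called in all 12 lists. Id1 to Id4 encode inhibitors of basic helix-loop-helix factors and are classic BMP target genes. Together the 4 had 16, 8, 3, 17, 21, 15, 18, 23, 30, 31, 18 and 22 summits in list order from 2i to D15. D1 stood lowest, and it was also the shortest list.

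Id3 had 5 late-gained regions among 10, the most of any member as reported, 4 with equal list lengths and 2 with −log10 q of at least 5, the same number as Id1 and Bmp6 had at that threshold. In list order from 2i to D15 it had 1, 1, 0, 4, 5, 4, 7, 9, 11, 12, 7 and 10 summits. The 3 earliest lists stood below all the later ones. Its start region, chr4:136143327-136145029, was called in the 9 lists from D2 on, at 4.04, 4.30, 3.14, 5.29, 6.79, 5.81, 5.98, 4.57 and 4.50. Regions 8.55 kb upstream and 4.14 kb past the start were called in the same 9 lists, each highest at D3 (10.6 and 11.1) and lowest at D15 (3.36 and 3.78). Another late-gained region, 3.28 kb upstream, was called at D3, D4 and from D6 on, and the last, 44.5 kb upstream, at D10 and D15 alone. Between the start and the 4.14 kb site lay an early-lost region at 3.13 kb, called at 2i (4.38) and D0 (3.61) alone. Late-gained and early-lost sites were thus neighbours at this gene. The 250 bases before the start, chr4:136143572-136143821 on the plus strand (RefSeq, GRCm38.p6, 18 CpG in capitals), lie inside the late-gained start region.
Id3: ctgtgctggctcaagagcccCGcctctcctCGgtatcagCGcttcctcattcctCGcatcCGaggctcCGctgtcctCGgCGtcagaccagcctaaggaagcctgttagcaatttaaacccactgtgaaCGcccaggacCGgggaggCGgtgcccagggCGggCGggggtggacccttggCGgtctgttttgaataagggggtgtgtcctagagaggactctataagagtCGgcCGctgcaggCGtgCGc

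Id1 had its start called at 2i and from D2 on, in 10 lists, at 2.83 at 2i and 5.62 at D7, with an early-lost region 9.14 kb to its left and a late-gained one 6.54 kb to its left, called from D6 on. Id2 had its start called in all lists but D1, and an always open region 2.75 kb upstream. A region 28.6 kb upstream of Id2 reached 15.1 at D7 and 11.7 at D8. Id4 had a start called throughout, at 5.19 at D1 to 21.3 at D3, an early-lost region 15.7 kb upstream and a transient one 23.3 kb upstream. Each of the 4 ID genes had 1 early-lost region, and 0 with −log10 q of at least 5.

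The SMADs that carry the signal had starts called throughout, apart from Smad9, whose start was not called at 2i and D1. Smad3 had 17 regions, with 2 summits at D2 and 18 at D7. Its early-lost region to the right of the gene, chr9:63803094-63803885, was called in every list from 2i to D8, at 4.58 at D4 to 13 at D3. In rank within its list that region stood above 84% of peaks at 2i, 77.7% at D3 and 46.1% at D4. Smad5 had a late-gained region left of the gene, called from D5 on and highest at D7 (8.37). Smad1 had 2 transient regions inside the gene, and Smad2 and Smad4 1 transient region each.

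Promoter composition went with how often a window was overlapped by a peak. In the members, 15 windows were overlapped in all 12 lists, with a median GC content of 73.3% and 36 CpG. Another 21 were overlapped in 1 to 11 lists, with medians of 59.0% and 12 CpG, and 1 in none, with 3 CpG. Over all genes the same order held, at 63.7% and 24 CpG for 9037 windows, 57.3% and 12 CpG for 4960, and 46.3% and 3 CpG for 7048. The members thus followed the order seen over all genes.

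**Figure D5:**
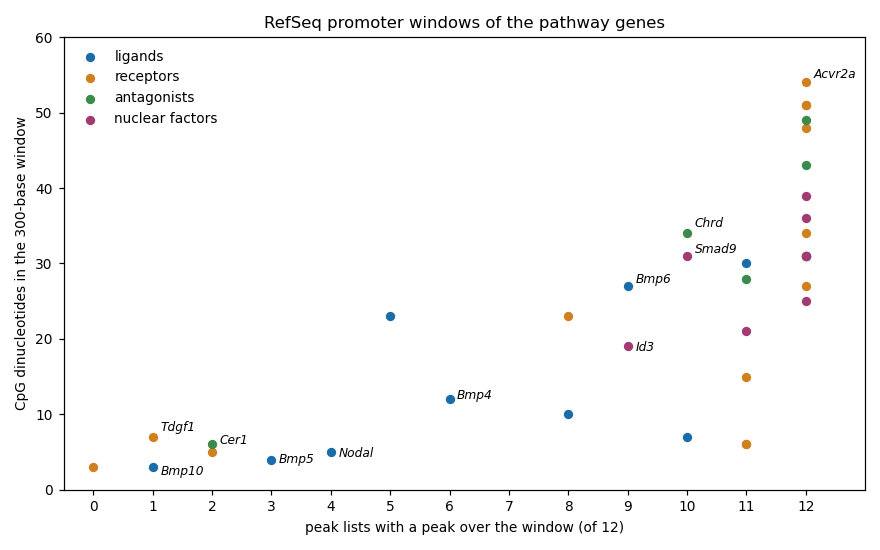
Number of CpG dinucleotides in each member's 300-base RefSeq promoter window (vertical axis) against the number of peak lists with a peak over it (horizontal axis, of 12). Windows covered in all 12 lists have 25 to 54 CpG, and those covered in 1 to 11 lists 3 to 34.

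Change over the course was tested per gene as summits per 1000 of the list against day, over the 11 dated lists, by a two-sided Spearman permutation test (100000 resamples, p-values adjusted by Benjamini-Hochberg over 12850 genes). Of 43 members with enough summits, 0 passed in either direction, against 0.335% of all tested genes rising and 0.187% falling. Bmp10 and Cer1 had under 12 summits in the dated lists and were not tested. By unadjusted permutation p under 0.05, 10 members (23.3%) had a positive trend and 3 (6.98%) a negative one, against 10.6% and 4.92% of all tested genes, and rho was above 0 in 33 of 43 and below 0 in 10. The median rho was 0.364 in the members and 0.0909 over all tested genes, of which 7650 were above 0. Members also had more summits a gene, a median of 37 against 15 over all protein-coding genes, tested or not. The part of summit number in these differences was not tested.

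The member trends with the lowest p were those of Id3, Tgfbr3 and Bmp6. Id3 had a rho of 0.90 (Pearson's r 0.842, permutation p 0.00029, adjusted p 0.0518), and without D10 and D15, the last lists, a rho of 0.883. With −log10 q of at least 5 its rho was 0.278 (adjusted permutation p 0.786), and with equal list lengths 0.667 (0.205). Tgfbr3 had 0.90 (r 0.815, permutation p 0.00037, adjusted p 0.0539), and 0.967 without D10 and D15. Bmp6 had 0.864 (r 0.876, permutation p 0.00103, adjusted p 0.0744), and 0.817 without them. Their shares of the list went from 0.00 to 0.276 summits per 1000 at Id3, from 0.0248 to 0.298 at Tgfbr3 and from 0.0248 to 0.166 at Bmp6. With equal list lengths Tgfbr3 passed (adjusted permutation p 0.0478), as it did within 100 kb (0.0326) and without D10 (0.0237), and Bmp6 passed by Pearson's r (0.0421). Neither passed with −log10 q of at least 5 (adjusted permutation p 0.207 for Tgfbr3 and 0.161 for Bmp6) or within 20 kb (0.117 and 0.14). Tgfbr3 did not pass by Pearson's r (0.079), nor Bmp6 with equal list lengths (0.0595). The statistical weight of a call was mostly higher in late lists, and its part in these trends was not tested.

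The other positive trends with an unadjusted permutation p under 0.05 were Lefty2 (rho 0.764), Bmp4 (0.709), Acvr2b (0.691), Smad5 (0.691), Tgfbr1 (0.664), Tgfb3 (0.642) and Smad6 (0.618). The negative ones were Tdgf1 (−0.734), Bmpr1b (−0.691) and Grem1 (−0.627). Their adjusted permutation p ran from 0.153 to 0.313. Nodal had a rho of −0.60 (permutation p 0.056, adjusted p 0.336). Without D10 and D15, rho was 0.433 for Acvr2b, 0.444 for Tgfb3 and −0.550 for Tdgf1, smaller than over all lists, and 0.833 for Smad6, 0.783 for Tgfbr1 and 0.817 for Lefty2, larger than over all lists.

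A further 64 genes of the same pathway that are not members were followed for comparison. Of these, 56 were tested, 35 with a rho above 0 and 21 below, and 0 passed. By unadjusted permutation p under 0.05, 8 had a positive and 3 a negative trend, and the median rho was 0.119. They had 411 regions, of which 47 were always open, 41 early-lost, 16 late-gained and 72 transient. A late-gained region was found at 12 of the 64, an early-lost one at 27 and a transient one at 42. Of their late-gained regions 11 lay at the 20 extracellular modulators, such as latent TGF-beta binding proteins and follistatin-like genes. The remaining 18 ligands had 1, the 9 receptors and co-receptors 1 and the 17 intracellular partners 3.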

How the data were processed

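ATAC-seq libraries came from 24 samples of the A2lox.cre line, 2 replicates at each of 12 time points. Per the submitters' processing notes, the build is mm10 and the tools are MACS2 2.1.1, Bowtie2 2.3.2, cutadapt 2.10, Picard and SAMtools 1.5, with no order or settings. Not given in the sources used here are read depth, any shifting of reads and how replicates were combined. For each peak the authors deposited a fold enrichment (linear ratio) together with a −log10 p-value and a −log10 q-value. The summit offset, a score in bases from the peak's start, is deposited with them. Fold enrichments were used to describe peaks and to rank them within a list, and no fold was tested between lists. Ranges of fold over several lists carry the difference in scale between lists. The lowest −log10 q was 1.30 to 1.31 in each list.

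Genes came from a RefSeq table of GRCm38.p6, in which all 45 members matched by symbol. Starts and strands came from a RefSeq promoter table holding 32 members and 17274 genes; for the others either annotated end counted as a start, and positions are left or right by coordinate. Exon and intron are not given. Summits were assigned as the report describes, and peaks overlapping by 1 bp were merged into 128679 regions, 95350 of them at a gene. Start summits lie within 1 kb. Trends used genes with at least 12 summits in the dated lists and a threshold of 0.05. The trend test was tested on simulated data.

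Named genes were 25 members set by name, those with most regions of each class in a role, and any past the trend threshold. The fixed lists were the 64 other pathway genes in 4 groups (ligands, receptors and co-receptors, extracellular modulators, intracellular and nuclear partners) and markers in 8 groups. Besides those in the report, early mesoderm markers with a summit numbered 5 of 6 at 2i, 6 at D7 and 4 at D15. Endothelial markers numbered 4, 5 and 4 of 5, neural markers 5, 5 and 4 of 5, and endoderm markers 4, 5 and 2 of 5 in the same lists. The members and lists were chosen with earlier results of these data known. Computation used Python 3.11.15, numpy 2.4.6, pandas 2.3.3, scipy 1.17.1, statsmodels 0.14.6 and matplotlib 3.10.9.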

Additional observations from a re-analysis of the deposited data

How the results depend on the processing

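No paired analysis was possible because both replicates of a time point are in 1 deposited list, so the data limit every comparison to counting error. Early-lost member regions numbered 25 as reported, 15 with −log10 q of at least 5, 15 with equal list lengths (31324 peaks) and 16 with genes within 20 kb. Late-gained regions numbered 24, and 13 with −log10 q of at least 5. Transient regions numbered 62, 38 with equal list lengths and 38 without the D7 list. The cause was not tested. Always open regions stayed within 25 to 35. Members with a rising trend numbered 0 as reported. There was 1 with equal list lengths, 1 within 100 kb, 1 by Pearson's r, and 0 to 1 when a list was left out, the 1 being Tgfbr3 without D10. Members with a falling trend numbered 0 under every alternative run. Over all genes, rising trends numbered 43 as reported, 20 with −log10 q of at least 5, 100 with equal list lengths, 0 within 20 kb, 16 within 100 kb, 24 with the nearest end only, 100 by Pearson's r, 0 with a minimum of 1 summit, and 0 to 14 when a list was left out. Falling trends numbered 24, 14, 50, 0, 9 and, by Pearson's r, 11, with 0 at a minimum of 1 summit and 0 to 15 when a list was left out. Single members' trends were rerun only for the 10 positive and 3 negative ones with an unadjusted permutation p under 0.05. Of their 226 alternative values, 225 kept their direction, which says little because these members were picked for their trends in the same data. None had passed as reported, so the side of the threshold also says little. Tgfbr3 passed it in 3 and Bmp6 by Pearson's r. Several rho values became much smaller. With −log10 q of at least 5, Id3 went from a rho of 0.90 to 0.278, Acvr2b from 0.691 to 0.109 and Lefty2 from 0.764 to −0.0826 (adjusted permutation p 0.981). Within 20 kb, Smad5 went from 0.691 to 0.0909 and Tgfbr1 from 0.664 to 0.20, and with equal list lengths Lefty2 to 0.102. Tdgf1 and Tgfb3 had too few summits to be tested with −log10 q of at least 5 or with equal list lengths.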
